A study of Mus musculus with 24 samples.

Results

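AKR is a mouse esophageal carcinoma cell line, and its unedited form was set against the unedited forms of 3 other mouse tumour lines by bulk RNA-seq. The 3 AKR libraries are those that carry the non-targeting guide (sgNT), chosen by that label, out of 24 libraries in the series. They were compared with the 9 other sgNT libraries, 3 each of MC38 (colon adenocarcinoma), LLC1 (Lewis lung carcinoma) and Hepa1-6 (hepatocellular carcinoma). The series itself asks what loss of B2m, the light chain of MHC class I, does to such cells, and its 12 sgB2m libraries serve here only as a repeat. All lines grew in DMEM with serum, and the sgNT cells carry a non-targeting guide in place of the B2m guide. The labels do not say whether replicates were separate cultures, or whether the sgNT cells were clones or pools, so p-values measure the spread between libraries of 1 line. Line, table and any sequencing batch cannot be told apart in this design.

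As background, esophageal squamous epithelium keeps a basal layer marked by the transcription factor p63 (Trp63), by Sox2 and by keratins Krt5 and Krt14. Its upper layers switch to Krt4 and Krt13 and build a cornified coat. Simple epithelia such as liver and gut use Krt8, Krt18 and Krt19 instead, and epithelial cells of either kind hold to each other through E-cadherin (Cdh1) and desmosomes. Cells that leave the epithelial state often lose Cdh1 and gain vimentin (Vim), N-cadherin (Cdh2) and Zeb factors. AKR is known as a line from mice that direct a cyclin D1 transgene to squamous epithelium and lack p53, which the labels do not state.

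In units of 1000000, the reads counted per library ranged from 28.3 to 32.9 in AKR and from 26 to 49.7 over all 12 sgNT libraries. Levels are given as CPM, the reads of a gene per 1000000 reads counted in a library. Within each line the libraries correlated at 0.994 or more across genes on the log2(CPM + 1) scale. CT010467.1, an annotated ribosomal RNA entry on chromosome 17, stood at 10146, 11939 and 7039 CPM in AKR against 372 to 2398 CPM in the 9 others, and its part in any result was not tested. B2m stood at 407 ± 8.75 CPM in AKR sgNT (SD, n = 3).

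A total of 15505 genes was tested with limma on log2(CPM + 1), with a call where the adjusted p lay under 0.05 and the log2 difference reached 1. AKR was higher than MC38 in 1587 genes (10.2%) and lower in 2298 (14.8%), a balance that turned to 2014 higher and 1816 lower with upper-quartile scaling. Against LLC1 the counts were 1802 higher (11.6%) and 1689 lower (10.9%), and against Hepa1-6 they were 2721 (17.5%) and 2217 (14.3%). AKR was called higher than each of the 3 other lines in 563 genes (3.63%) and lower than each in 276 (1.78%). Without a size requirement, all 3 AKR libraries lay above all 9 others in 2531 genes (16.3%) and below all 9 in 1866 (12%). By rank of mean level over the tested genes, AKR lay nearest to LLC1 (Spearman rho 0.896), then to MC38 (0.875) and Hepa1-6 (0.79), which is a description across genes. In the sgB2m libraries of the same lines, 365 of the 563 higher genes (64.8%) and 161 of the 276 lower genes (58.3%) were called again.

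Defining genes of squamous epithelium were at or near 0 in AKR, against its label as an esophageal carcinoma line where that tumour is of the squamous kind. Trp63, the master regulator of squamous epithelia, stood at 0.247, 0 and 0.152 CPM in the 3 AKR libraries, and did not exceed 0.642 CPM in any other library. Krt5, Krt14, Krt17 and Krt6a had 0 reads in all 3 AKR libraries, a count that allows up to 0.0966 CPM (3 reads per library, counting error only). The desmosomal cadherin Dsg3 stood at 0.27 ± 0.161 CPM. Of 20 basal squamous genes, 4 reached a mean of 10 CPM in AKR, among them Itga6, Dst and Jag2. Of these 20, 1 was called higher than in each other line, the Notch ligand Jag2 at 16.2, 14.6 and 18.2 CPM against 1.34 to 5.35 CPM. None was called lower, and 7 fell below the level filter. Over all genes 3.63% were called higher and 1.78% lower. MC38, not AKR, held Krt14, at 55.2 ± 2.35 CPM, and Hepa1-6 held Krt5, at 12.1 ± 1.15 CPM.

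Some transcription factors that squamous and foregut epithelia use were high in AKR. Of 19 such factors, 5 were called higher than in each other line, none lower, 8 were tested without a call in all 3 comparisons and 6 fell below the filter, beside 3.63% higher and 1.78% lower over all genes. Barx2, a homeobox factor, stood at 19.6, 17.9 and 18.2 CPM in AKR and at most at 0.221 CPM elsewhere. Grhl2, a grainyhead factor that maintains epithelial junctions, stood at 14.7, 11.4 and 13.2 CPM against 0.268 to 1.8 CPM. Pitx1, a homeobox factor, stood at 18.6, 17.8 and 19.8 CPM, with at most 7.9 CPM in MC38 and 0 reads in LLC1 and Hepa1-6. For all of these factors the AKR libraries lay above every other library, as the call largely entails. Such separation was found in 16.3% of all genes tested.

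Klf5, a Krüppel-like factor of proliferating epithelia, stood at 101, 86.3 and 98.3 CPM in AKR and reached 45 CPM in the others. Tfap2a, an AP-2 factor of surface ectoderm, stood at 34.3, 34 and 35.8 CPM against at most 16.9 CPM, with the smallest log2 difference at 1.03 ± 0.13 (SE, AKR minus LLC1). In the sgB2m libraries neither Klf5 nor Tfap2a was called against each line. Sox2, the foregut factor, stood at 13.1, 12.9 and 12.7 CPM, 1.89-fold above MC38 and at least 116-fold above LLC1 and 130-fold above Hepa1-6, where it had 0 reads. Its log2 difference from MC38 was 0.83 ± 0.09, short of the size required for a call.

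The other squamous factors did not set AKR apart. Pax9, a foregut factor, stood at 18.8 ± 0.95 CPM, close to the 19.6 ± 0.0607 CPM of LLC1. Klf4 stood at 103 CPM in AKR, with 456 in MC38, and Elf3 at 13.6 CPM, with 26.7 in Hepa1-6. Ehf, an epithelial ETS factor, had 0 reads in AKR with 53.8 CPM in Hepa1-6. Grhl1 at 0.309 CPM, Grhl3 at 0.0309, Tfap2c at 0.571 and Zfp750 at 0.081 were near 0 in AKR, and Ovol1 and Foxe1 had no reads there.

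Upper-layer genes were also few. Of 29 suprabasal and cornified genes, 28 had an entry in a table, 3 reached 10 CPM in AKR and 10 had 0 reads. Krt13, the keratin of the upper esophageal layers, was called higher at 6.08, 6.73 and 6.56 CPM, against at most 2.06 CPM elsewhere and 0 reads in LLC1 and Hepa1-6. Its partner Krt4 had 0 reads in AKR. Cdsn, the gene of the cornified-layer adhesion protein corneodesmosin, stood at 118, 112 and 121 CPM against at most 10.8 CPM. Cdsn and Krt13 were the only listed upper-layer genes called higher than in each line. None was called lower, beside 3.63% higher and 1.78% lower over all genes. Cornified envelope precursors stayed near 0, with involucrin (Ivl) at 0 reads and loricrin (Lor) at 0.274 CPM.

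The highest keratins in AKR among those listed were Krt8, Krt18 and Krt19 of simple epithelia. Krt8 stood at 424, 429 and 415 CPM, 246-fold above MC38 and 7.65-fold above LLC1, and Krt18 at 326, 328 and 315 CPM, 2958-fold above MC38 and 7.16-fold above LLC1. Both were higher still in Hepa1-6, with Krt8 2.45-fold and Krt18 3.81-fold above AKR. Krt19 stood at 294, 302 and 289 CPM in AKR, at 242 to 258 CPM in Hepa1-6, at 0.26 CPM in MC38 and at 0 in LLC1. The 6 simple keratins summed to 1024 to 1066 CPM per AKR library, 1.66 to 2.55 in MC38, 100.2 to 103 in LLC1 and 3210 to 3251 in Hepa1-6. In AKR 4 of the 6 reached 1 CPM and Krt7 had 0 reads. None of the 6 was called in the same direction against all 3 lines.

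Junction genes differed widely in level in AKR. The plaque genes Dsp, Jup and Pkp2, which link desmosomes to keratin, stood at 41.8, 102 and 44 CPM. Dsp was 1039-fold above MC38 and 680-fold above LLC1, and 8.31-fold below Hepa1-6. Another plaque gene, Pkp3, stood at 13.7 ± 0.837 CPM. Cdh1 stood at 0.106, 0.154 and 0.274 CPM, Epcam at 1.26 ± 0.254 CPM, and the epithelial splicing factor Esrp1 at 0 reads. Of 27 adhesion and identity genes, 26 had an entry and 4 reached 10 CPM in AKR, beside 2 in MC38, 1 in LLC1 and 14 in Hepa1-6. The median log2 differences of the 19 tested genes were 0.11 against MC38, 0.18 against LLC1 and -3.80 against Hepa1-6. Beside 3.63% higher and 1.78% lower over all genes, 1 was called higher than in each line and none lower. That gene was Spint1, a Kunitz-type protease inhibitor of epithelia, at 8.41, 9.54 and 9.3 CPM and at 0 reads in all 9 other libraries, hence at least 82-fold higher.

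**Figure D1:**
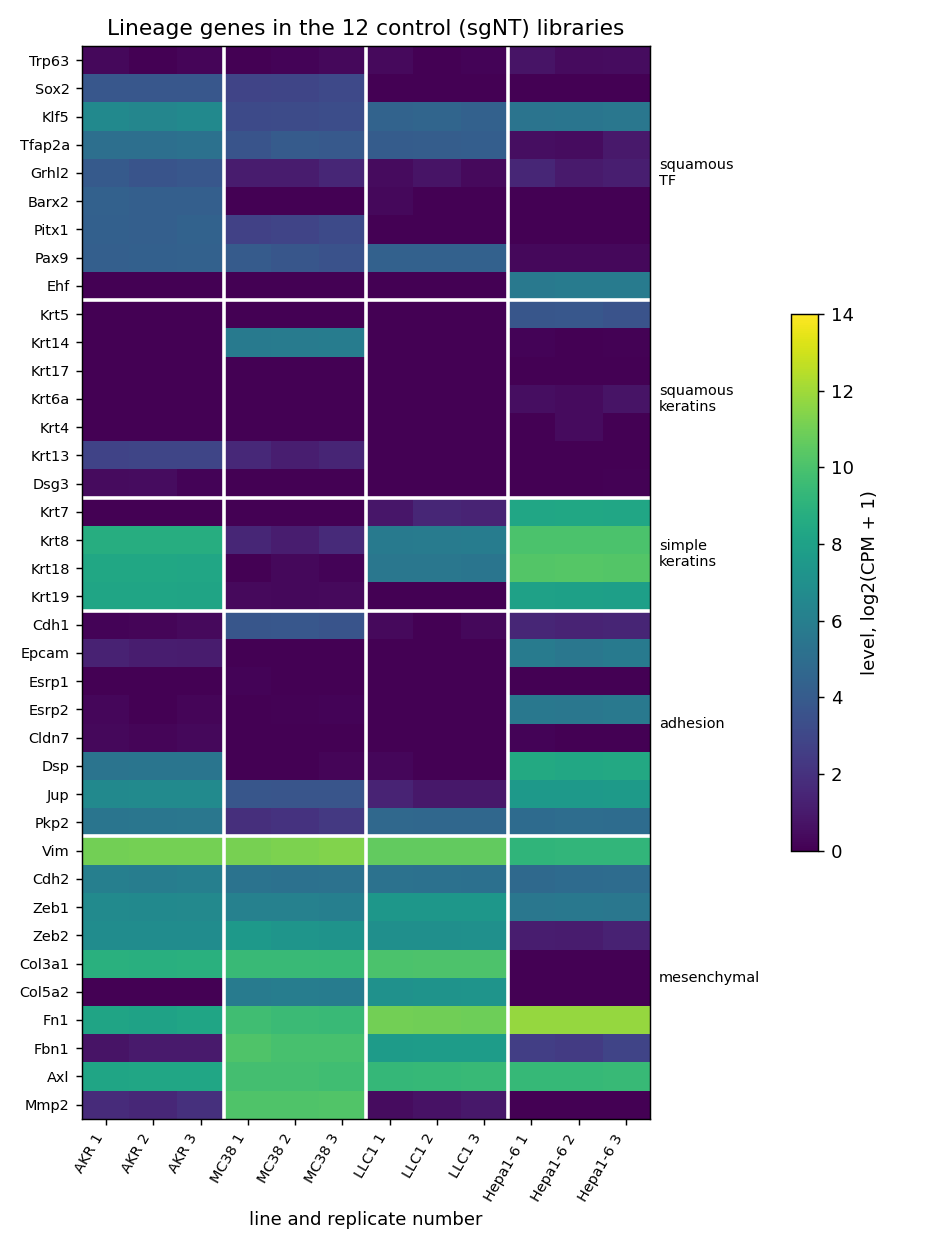
Levels of lineage genes, as log2(CPM + 1), in the 12 sgNT libraries (columns, 3 per line) for squamous transcription factors, squamous keratins, simple keratins, adhesion genes and mesenchymal genes (rows). AKR is dark for Trp63, Krt5, Krt14 and Cdh1 and bright for Krt8, Krt18, Krt19 and Vim.

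Mesenchymal genes were expressed alongside these keratins, though not the whole programme. Vim stood at 2114, 2116 and 2118 CPM in AKR, between MC38 at 2412 and LLC1 at 1587 CPM. Of 38 mesenchymal genes, 19 reached 10 CPM in AKR, against 31 in MC38, 24 in LLC1 and 10 in Hepa1-6. Zeb1 stood at 99.7 ± 4.37 CPM, Zeb2 at 111 CPM and Cdh2 at 63.1 CPM. No listed gene was called higher in AKR than in each line and 3 were called lower, beside 3.63% and 1.78% of all genes. The fibronectin gene Fn1 stood at 284, 268 and 303 CPM against 716 CPM or more in every other library. The microfibril gene Fbn1 stood at 0.672, 1.05 and 1 CPM, 5.76-fold below Hepa1-6 and 1132-fold below MC38. The receptor kinase Axl stood at 305, 312 and 314 CPM, with log2 differences from -1.10 to -1.51, and was not called in the sgB2m libraries.

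Collagen genes were uneven in AKR. Col3a1 stood at 461 ± 8.27 CPM and Col5a1 at 144 CPM, whereas Col5a2, the usual partner of Col5a1, had 0 reads in all 3 libraries and 58.6 and 144 CPM in MC38 and LLC1. Col1a2 stood at 0.133 CPM while Col1a1 stood at 25 CPM. Mmp2, a gelatinase, stood at 2.37 CPM in AKR against 1135 CPM in MC38. Neither Mmp2 nor any of these collagen genes was called in the same direction against all 3 lines.

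Of 20 hepatocyte markers with an entry, 1 reached 1 CPM in AKR, Afp at 3.25 CPM against 6712 CPM in Hepa1-6, and none was called higher than in each line. Their summed level was 5.3 to 6.55 CPM per AKR library. The 14 intestinal markers with an entry summed to 42.5 to 46 CPM, with 3 at or above 1 CPM and 1 at or above 10 CPM. Vil1, of the brush border, stood at 0.217 CPM and the stem cell receptor Lgr5 at 0 reads. The intestinal factor Cdx2 was called higher, at 6.29, 7.63 and 6.63 CPM against at most 2.95 CPM elsewhere. The 10 lung markers with an entry summed to 62.9 to 66.2 CPM, of which the lipid transporter Abca3 gave 62.6 CPM on average, and 2 of them reached 1 CPM. The surfactant genes Sftpb and Sftpc stood at or below 0.0778 CPM, and none of the lung markers was called in the same direction against all lines.

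Ptprc, Adgre1 and Cd4, which define leukocytes, had 0 reads in AKR, and so did the endothelial receptors Kdr and Tek. Of 9 endothelial markers, 1 had no entry, 3 had 0 reads and 2 reached 1 CPM in AKR, with a sum of 6.48 to 7.57 CPM. Of 9 lymphocyte markers, 6 had no entry, 2 had 0 reads and 1 reached 1 CPM. None of either list was called in the same direction against all lines. Of 9 myeloid markers with an entry, Cd68, a lysosomal membrane protein, was called higher, at 82.7, 81.1 and 77.3 CPM against at most 24.2 CPM. Of 10 neural markers with an entry, 4 were tested and 2 called higher, and of 6 muscle markers with an entry, 4 were tested and 2 called higher, beside 3.63% of all genes. Ncam1, a neural adhesion molecule, stood at 64.7, 57.9 and 62.4 CPM against at most 7.54 CPM, and Nefl, a neurofilament gene, at 8.86 CPM against at most 1.04 CPM on average. Des, the muscle intermediate filament desmin, stood at 20.8 CPM with at most 2.91 CPM on average elsewhere, and the troponin gene Tnnt3 was also called. The neural crest factor Sox10 stood at 0.0471 CPM.

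The genes that stood furthest above all other lines were mostly silent elsewhere. Nxf7, of the nuclear RNA export factor family on chromosome X, stood at 199, 199 and 200.3 CPM in AKR and at most at 0.217 CPM in any other library. Its smallest log2 difference was 7.53 ± 0.09 (adjusted p = 4.02e-16 at most, limma). Slc2a5, the fructose transporter GLUT5, stood at 71.6, 68.4 and 74.1 CPM against at most 0.402 CPM. Ripk3, the kinase that starts necroptosis, stood at 61.4, 62.3 and 54.3 CPM, against at most 0.271 CPM, 657-fold above MC38. The executor of that pathway, Mlkl, was expressed in all lines, at 75.1 CPM in AKR and 68.3 to 149 CPM on average in the others.

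Others in this group of 15 were the small heat shock protein Hspb1, the progenitor surface protein Plet1, the proteoglycan Sdc3 and the calcium channel Cacna1h. Hspb1 stood at 48.2, 45.4 and 43.4 CPM against at most 0.48 CPM, and Plet1 at 49.9, 50.2 and 46.9 CPM against at most 0.965 CPM. Acap1, an Arf GTPase activator, stood at 137 ± 7.1 CPM and at 4.3 ± 0.748 CPM in LLC1, the next highest. The phospholipase Liph stood at 29.9 CPM, the coactivator Eya2 at 42.9, Trim54 at 50.9, Aff2 at 20.4 and Serinc2 at 20.1 CPM. The hormone gene Fgf21 and Barx2 completed the set. Each of the 15 was also called higher than in each line in the sgB2m libraries.

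**Figure D2:**
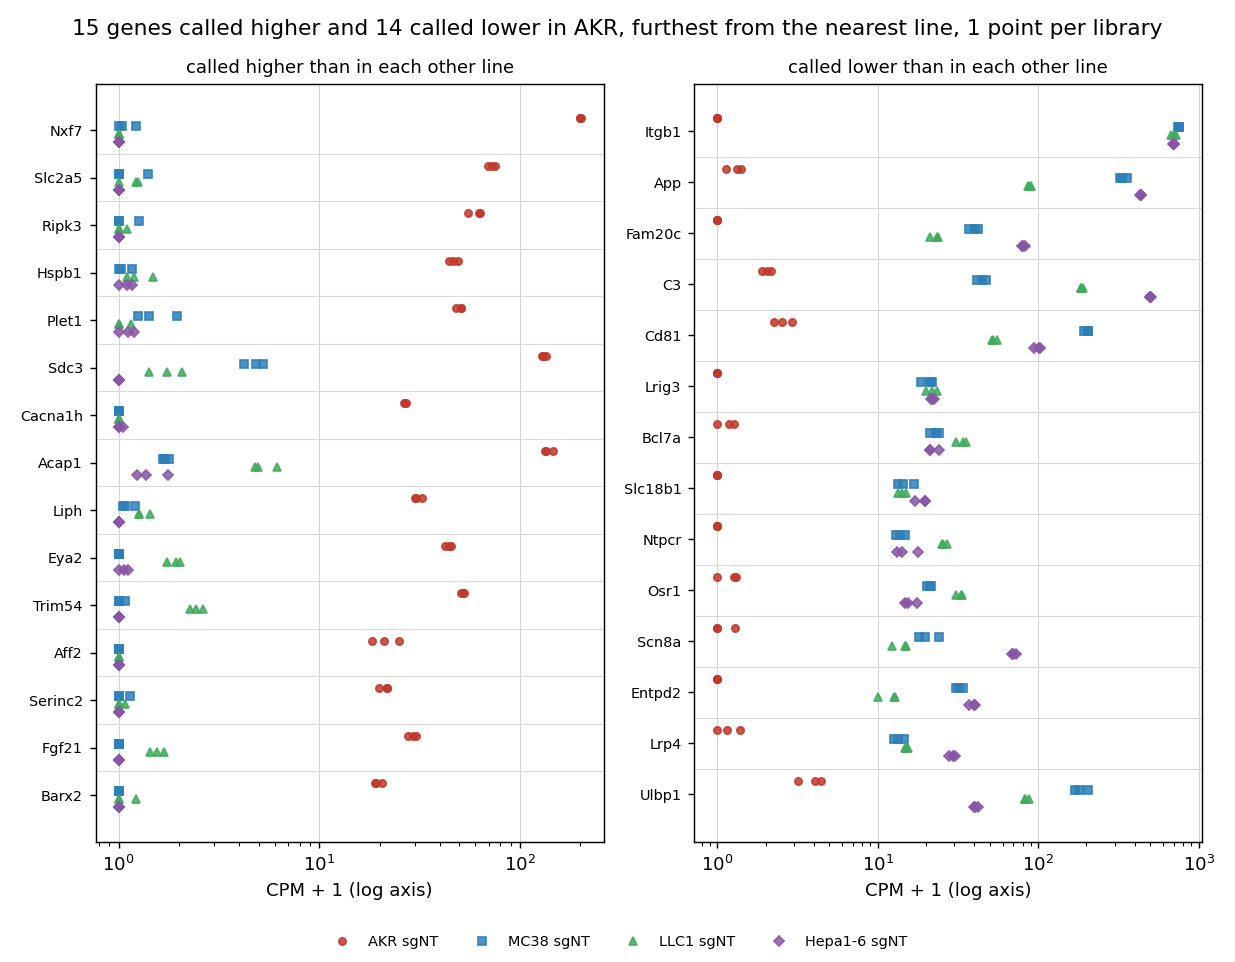
Levels (CPM + 1, log axis) of 15 genes called higher and 14 called lower in AKR than in each other line, among those that stood furthest from the nearest line, with 1 point per sgNT library. AKR points lie apart from all others in each row, from Nxf7 at 199 CPM to Itgb1 at 0.

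Hras and Grb10, both of growth signalling, also stood far above the other lines. Hras, a Ras GTPase, stood at 476, 465 and 478 CPM in AKR, 20.2-fold above MC38, 39.3-fold above LLC1 and 8.06-fold above Hepa1-6. Its relative Nras stood at 201 CPM against 149 to 164 CPM on average and was not called. Of 19 Ras and MAP kinase pathway genes, a list drawn up after the values were seen, Hras and Rps6ka2 were called higher and Mras lower. Mras was not called in the sgB2m libraries, and over all genes 3.63% were called higher and 1.78% lower. Grb10, an imprinted adaptor that restrains insulin receptor signalling, stood at 654, 635 and 668 CPM, 9.08-fold above LLC1, with 0 reads in MC38 and 0.0642 CPM in Hepa1-6. Of 20 genes of the insulin and AKT pathway, also listed after values were seen, Grb10 was called higher and Irs1, Irs2 and Akt1 lower than in each line, beside 3.63% and 1.78% of all genes. Irs1, an insulin receptor substrate, stood at 15.8 CPM against 74.1 CPM or more on average. Irs2 was not called with upper-quartile scaling, and Akt1 was not called in the sgB2m libraries.

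Among growth factor genes, calls went both ways. Vegfa, the angiogenic factor, stood at 797, 771 and 799 CPM against 141 to 188 CPM, 4.24-fold or more above each line. Areg, a ligand of EGFR, stood at 71.6, 72.1 and 70.4 CPM, 2.48-fold above Hepa1-6. Of 30 receptors and ligands these 2 were called higher, and the receptors Axl and Erbb3 lower, beside 3.63% and 1.78% of all genes. Areg, Axl and Erbb3 were not called in the sgB2m libraries. Among Notch genes, Jag2, Dll1 (9.55, 9.08 and 13.4 CPM) and Notch4 (10, 8.71 and 8.75 CPM) were called higher of 20 listed, and none lower, beside 3.63% higher over all genes. Among 35 Wnt pathway genes none was called higher and 3 were called lower, beside 1.78% lower over all genes. The Wnt feedback target Axin2 had 0 reads in AKR, at least 19.6-fold below LLC1 and 1301-fold below Hepa1-6. The receptor Fzd1 stood at 0.428 CPM, against 3.21 CPM or more on average elsewhere, and the R-spondin receptor Lgr4 at 5.14 CPM, against 15.8 CPM or more.

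As background, the factor ATF4 is translated when amino acids run short or misfolded protein builds up, and it switches on Atf3, Ddit3, Ppp1r15a and transfer-RNA synthetase genes. Of 31 genes of this response, listed after values were seen, 11 were called higher than in each line, beside 3.63% of all genes, none lower and 20 in neither direction. Atf3, a stress transcription factor, stood at 169, 173 and 175 CPM against 12.7 to 33.7 CPM. Ppp1r15a, the phosphatase subunit that ends the response, stood at 438, 452 and 449 CPM against 114 ± 7.98 CPM in LLC1, the next highest line. Gdf15, a secreted stress hormone, stood at 204, 197 and 209.6 CPM against at most 28.3 CPM. Fgf21 stood at 28.2, 26.8 and 29.4 CPM against at most 0.688 CPM. The other members called higher were Ddit3, Ddit4, Vldlr, Nupr1, Gtpbp2, Sars and Rars. The medians of the 31 genes' log2 differences were 1.97 against MC38, 1.02 against LLC1 and 0.90 against Hepa1-6, beside -0.04, 0 and 0.09 for all genes tested.

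Chaperone genes of the endoplasmic reticulum were less uniform. Of 16 listed after values were seen, Hspa5, the main chaperone BiP, and Herpud1, of the degradation machinery, were called higher, and none lower. The shares over all genes were 3.63% higher and 1.78% lower. Hspa5 stood at 3880, 3898 and 3855 CPM against 841 to 1969 CPM, and Herpud1 at 530, 504 and 510 CPM against 83.9 to 106 CPM. In the sgB2m libraries 5 of the 31 ATF4 genes and none of the 16 chaperone genes were called higher than in each line. Atf3, Ddit3, Ddit4, Ppp1r15a, Vldlr and Sars were not called there. Atf3 stood at 75.6 CPM and Herpud1 at 232 CPM on average in AKR sgB2m, and the difference between guides was not tested here.

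Promoters of 3 of these genes are shown because the letters that such responses are known to act through can be read in them. Each window runs from 250 bases before to 50 after the start in RefSeq (GRCm38.p6), written 5′ to 3′ on the gene's strand, with the match in capitals. The core TGATGCAA of the amino acid response element, searched on both strands, lies in 279 of 27025 genes with a window (1.03%). It lies in 4 of the 10 ATF4 genes called higher that had a window, namely Atf3, Fgf21, Nupr1 and Vldlr, and in 7 of 27 over the list. In Atf3 (chr1:191183284-191183583, minus strand) and Fgf21 (chr7:45615441-45615740, minus strand) the match reads on the other strand. The ER stress element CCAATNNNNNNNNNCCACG, where N is any base, lies in 37 of the 27025 genes (0.137%) and in 7 of 14 chaperone genes with a window. Hspa5 is among these 7 (chr2:34771840-34772139, plus strand). A match is a description of letters, not evidence of binding in these cells.
Atf3: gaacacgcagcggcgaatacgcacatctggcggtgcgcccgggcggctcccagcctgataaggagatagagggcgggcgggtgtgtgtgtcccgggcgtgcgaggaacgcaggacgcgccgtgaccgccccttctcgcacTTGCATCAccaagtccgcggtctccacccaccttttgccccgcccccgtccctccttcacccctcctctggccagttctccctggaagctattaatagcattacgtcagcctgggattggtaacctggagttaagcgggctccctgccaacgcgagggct
Fgf21: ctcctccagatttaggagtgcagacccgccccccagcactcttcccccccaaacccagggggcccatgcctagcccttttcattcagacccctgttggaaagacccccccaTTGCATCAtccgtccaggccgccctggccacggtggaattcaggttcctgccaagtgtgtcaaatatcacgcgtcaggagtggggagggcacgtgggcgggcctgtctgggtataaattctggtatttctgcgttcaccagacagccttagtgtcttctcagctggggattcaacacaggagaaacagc
Hspa5: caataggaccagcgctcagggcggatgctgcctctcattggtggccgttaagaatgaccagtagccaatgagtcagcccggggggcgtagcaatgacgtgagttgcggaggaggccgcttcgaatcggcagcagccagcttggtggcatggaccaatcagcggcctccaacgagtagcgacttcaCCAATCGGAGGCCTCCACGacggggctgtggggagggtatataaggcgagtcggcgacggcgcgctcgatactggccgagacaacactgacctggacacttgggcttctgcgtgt

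Immediate early genes are known to rise within minutes of growth factor or stress signals. Of 28 listed after values were seen, 10 were called higher than in each line and 1 lower, beside 3.63% and 1.78% of all genes, and 17 were called in neither direction against all lines. Egr1, a zinc finger factor, stood at 559, 544 and 564 CPM against 50.9 to 87.6 CPM. Fos, a subunit of the AP-1 factor, stood at 120, 120 and 124 CPM against 8.31 to 33.9 CPM. Dusp2, a MAP kinase phosphatase, stood at 76.4, 79.6 and 76.5 CPM against at most 9.51 CPM. Ptgs2, the cyclooxygenase gene, stood at 825, 811 and 828 CPM against at most 237 CPM. The other 6 were Fosb, Egr3, Ier2, Dusp5, Zfp36 and Arc. Myc was the member called lower than in each line, at 31.1, 29.5 and 31.6 CPM, 3.58-fold below MC38 and 27.6-fold below LLC1. Counted line by line, 3 members were called lower than in MC38, 1 lower than in LLC1 and 3 lower than in Hepa1-6. The shares over all genes were 14.8%, 10.9% and 14.3%. In the sgB2m libraries 7 of the 28 were called higher, but Egr1, Fos, Fosb and Arc were not.

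**Figure D3:**
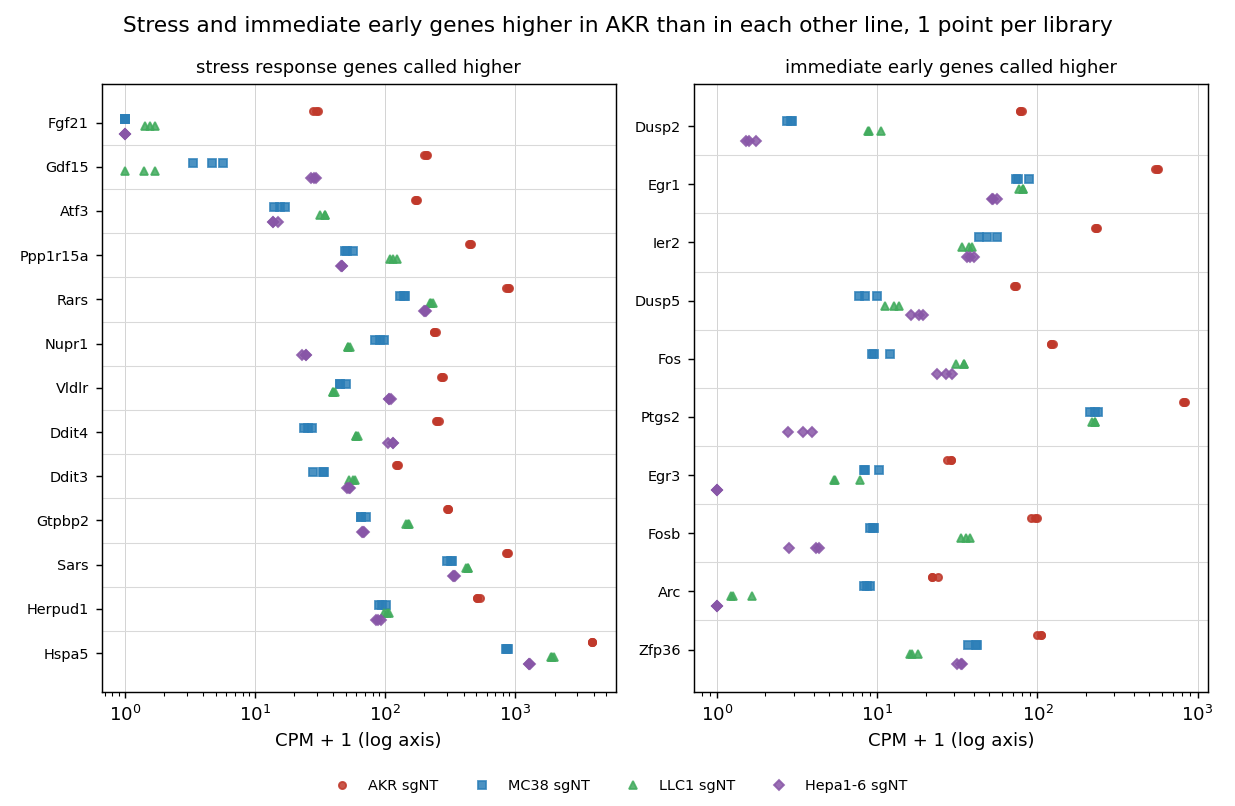
Levels (CPM + 1, log axis) of the ATF4 and chaperone genes (left) and immediate early genes (right) that were called higher in AKR than in each other line, with 1 point per sgNT library. The 3 AKR points lie to the right of all 9 others in every row, as the choice of called genes largely entails.

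Of 26 hypoxia and glycolysis genes, listed after values were seen, the aldolase Aldoc (117 CPM against at most 22.3) and the lactate exporter Slc16a3 (186 CPM against at most 59.2) were called higher. Egln1, the oxygen sensor that marks HIF for degradation, was called lower at 18.4, 18.5 and 18.4 CPM against 54.3 to 78.8 CPM. Of 25 cholesterol synthesis genes, also listed afterwards, none was called higher and Mvd, Hsd17b7 and the carrier Stard4 were called lower. Line by line, 21 members were called lower than in MC38 and 18 lower than in Hepa1-6, beside 14.8% and 14.3% of all genes. Against LLC1, 3 were called lower and 4 higher, beside 10.9% and 11.6% of all genes. In the sgB2m libraries 9 of the 25 were called lower than in each line. Of 20 NRF2 targets, Hmox1 was called higher, at 156 ± 6.47 CPM against at most 55.1 CPM, and none lower. In the sgB2m libraries 3 of the 20 were called higher, but not Hmox1. In these lists, the counts called against all 3 lines stand beside 3.63% higher and 1.78% lower over all genes.

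Of the genes called lower than in each line, Itgb1 had the largest smallest difference. It encodes the integrin beta 1 subunit, which pairs with most alpha subunits to bind matrix. Itgb1 (ENSMUSG00000025809, chromosome 8, 128685654 to 128733200, plus strand, mm10) has no entry in the AKR table and was counted as 0 in all AKR libraries, sgB2m included. It stood at 752 ± 5.81 CPM in MC38, 701 ± 24.9 in LLC1 and 699 ± 6.71 in Hepa1-6, at least 7232-fold higher than in AKR. Each table lists only genes above 0 in at least 1 of its 6 libraries. Its log2 difference was -9.45 ± 0.03 at the smallest (adjusted p = 3.87e-22 at most, limma). As the AKR values were set to 0, this SE and p-value take no spread from the AKR libraries.

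Several partners of Itgb1 were present in AKR. Itga6, Itga5, Itga3 and Itgav stood at 492, 186, 143 and 272 CPM, and none of them was called against each line. Itgb5, another partner of Itgav, stood at 97.2 CPM in AKR and at 81.3 to 124 CPM on average elsewhere. Itgb4, the partner of Itga6 in the hemidesmosomes of basal squamous cells, stood at 0.672, 0.772 and 1.22 CPM. It stood at 122 CPM in MC38 and 179 in Hepa1-6 and was not called lower than in each line. The leukocyte subunit Itgb2 was called higher, at 75.2, 72.4 and 72.1 CPM against at most 6.5 CPM, and so was the platelet subunit Itga2b at 13.3 CPM. Of 26 integrin genes, listed by symbol after values were seen, these 2 were called higher and Itgb1 lower. Another 17 were tested without a call in all 3 comparisons and 6 fell below the filter. In AKR 13 of the 26 reached a mean of 1 CPM and 6 had 0 reads. Over all genes 3.63% were called higher and 1.78% lower.

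**Figure D4:**
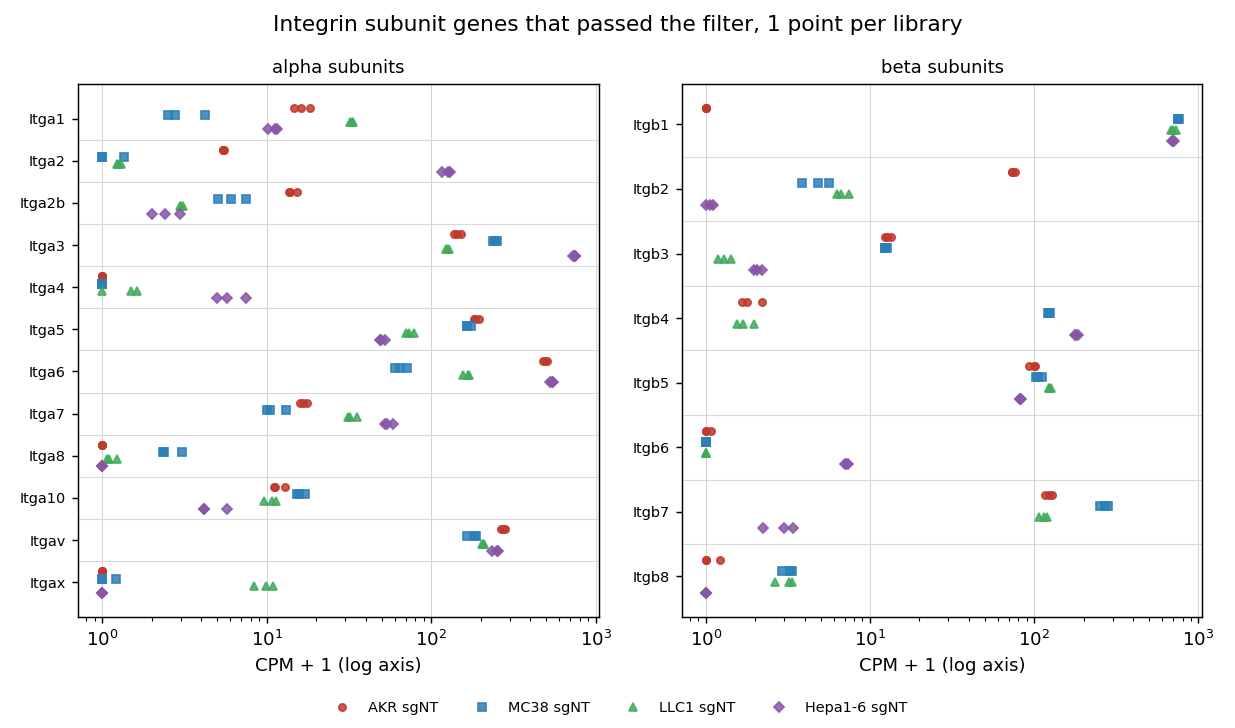
Levels (CPM + 1, log axis) of the integrin alpha and beta subunit genes that passed the level filter, with 1 point per sgNT library. AKR is at 0 for Itgb1, where the other lines stand between 675 and 758 CPM, and highest for Itgb2 at 73.2 CPM.

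Genes with such a complete loss were few. In AKR, 5 genes with at least 10 CPM on average in each other line had no entry in its table, compared with 3 for MC38, 10 for LLC1 and 101 for Hepa1-6. Beside Itgb1 these were Lrig3, whose protein has leucine-rich repeats and immunoglobulin-like domains, Ntpcr, Slc18b1 and 2610044O15Rik8. Lrig3 stood at 19.4 to 20.9 CPM on average in the other lines and Slc18b1, a polyamine carrier, at 13.2 to 17.9 CPM. Of the 276 genes lower than in each line, 10 had no entry in the AKR table.

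Other genes of varied kinds were also among the lowest, and a common role was not tested. App, the amyloid precursor gene, stood at 0.141, 0.401 and 0.334 CPM in AKR, 299.9-fold below LLC1 and 1489.9-fold below Hepa1-6. C3, the central complement component, stood at 1.17, 0.895 and 1.03 CPM against 40.3 CPM or more in every other library. The tetraspanin Cd81 stood at 1.27, 1.54 and 1.91 CPM against 50.7 CPM or more. The secretory kinase Fam20c had 0 reads in the sgNT libraries, against 20.3 CPM or more elsewhere. Bcl7a, Osr1, the sodium channel Scn8a, the ectonucleotidase Entpd2 and the agrin receptor Lrp4 all averaged under 0.2 CPM in AKR. All 15 genes of this group were called lower in the sgB2m libraries too.

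Cxcl16, the chemokine in the title of the study, stood at 1.24, 0.71 and 0.79 CPM in AKR against 18.6 ± 1.58 in MC38, 4.93 ± 1.4 in LLC1 and 28.6 ± 3.32 in Hepa1-6. Its smallest log2 difference was -1.62 ± 0.16 (adjusted p = 6.29e-07 at most, limma), and with a pseudocount of 4 CPM it was -0.85, short of a call. Ccl9 was also called lower of 23 chemokines, though not without LLC1 replicate 1. Cx3cl1, the membrane-bound chemokine fractalkine, was called higher, at 45.5, 44 and 48.7 CPM against at most 14.5 CPM, though not in the sgB2m libraries. Ulbp1, a ligand of the NK receptor NKG2D, stood at 2.19, 3.46 and 3.04 CPM against 38.8 CPM or more. Of 20 checkpoint and NK ligands Nt5e was called lower too, though not in the sgB2m libraries. Over all genes 3.63% were called higher and 1.78% lower. The interferon-induced Ifit2 stood at 3.34 CPM against 31.2 CPM or more on average and was the 1 member of 26 interferon-stimulated genes with an entry called in the same direction against all lines. The list differed from line to line, with 19 members called lower than in Hepa1-6 and 1 higher, beside 14.3% and 17.5% of all genes. Against MC38, 10 were called higher and 3 lower, beside 10.2% and 14.8% of all genes. Against LLC1, 11 were called higher and 1 lower, beside 11.6% and 10.9% of all genes. The median log2 differences of the 26 were -1.95 against Hepa1-6, 0.43 against MC38 and 0.82 against LLC1.

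MHC class I genes did not single out AKR. None of 20 class I and peptide-loading genes was called in 1 direction against each line. Of the 20, 8 were called higher than in LLC1 and 5 higher than in Hepa1-6, beside 11.6% and 17.5% of all genes. B2m at 400, 417 and 405 CPM lay below MC38 (910 ± 38.2) and LLC1 (600 ± 8.03) and above Hepa1-6 (231 ± 4.39). H2-K1 stood at 383 ± 3.12 CPM, 6.79-fold above LLC1, with 0 reads in Hepa1-6, and reads of H2 family members may be shared or split between near-identical genes. Cd274, the gene of PD-L1, stood at 6.7 ± 0.57 CPM, between MC38 at 1.77 and LLC1 at 11.2 CPM.

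Cell cycle genes held a few differences. Ccnd1, cyclin D1, stood at 255, 236 and 247 CPM against 507 CPM or more in every other library, and Cdk6, its kinase partner, at 50.7 ± 2.74 CPM against 118 CPM or more. Ccnd1 was not called against each line in the sgB2m libraries. Cdkn1c, the imprinted inhibitor p57, was called higher, at 15.2, 16.6 and 14.7 CPM against at most 0.226 CPM. Cdkn2a and Cdkn2b had 0 reads in AKR, and in MC38 and LLC1 as well, with 14.7 and 62.2 CPM in Hepa1-6. Trp53 transcripts stood at 184 ± 1.33 CPM in AKR, 457 in MC38, 179 in LLC1 and 111 in Hepa1-6. Of 26 p53 target genes, 4 were called higher (Gdf15, Ddit4, Eda2r and Rrm2b) and 2 lower (Fas and Phlda3), beside 3.63% and 1.78% of all genes. The calls of Rrm2b and Phlda3 were fragile: without LLC1 replicate 2 neither was called, nor was Phlda3 without AKR replicate 3. Neither was called with a pseudocount of 4 CPM or in the sgB2m libraries, nor Rrm2b with quantile normalisation. Ddit4 was not called in the sgB2m libraries either.

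By position, the distal end of chromosome 8 was the lowest stretch of 50 genes on average over the 3 comparisons, at -0.91, beside -0.85 for a window on chromosome 12. With no filter on low levels the median of the chromosome 8 window was -0.17. Over 50 consecutive tested genes from 123224842 to 129282844 on chromosome 8 (mm10), the median log2 difference was -0.88 against MC38, -1.04 against LLC1 and -0.82 against Hepa1-6. The chromosome 12 window held 39 of 50 genes below 0. Of its genes, 7 were called lower than in each line and 3 higher, beside 1.78% and 3.63% of all genes. The chromosome 8 window was picked for its low median, so its counts describe it and are no test. In it 45 of 50 genes lay below 0 on average over the lines. There, 12 were called lower than in each line and none higher, beside 1.78% lower over all genes. Itgb1 and Ntpcr lie there. Ccsap, a centriole protein gene, stood at 2.24 CPM against 8.2 CPM or more, and Egln1 also lies there. Pgbd5 and Agt had 0 reads in AKR but were not called against each line. The window was not uniformly low: Pard3, a polarity gene that lies on the same stretch, stood at 71.7 ± 4.32 CPM, between MC38 at 36.6 and LLC1 at 137 CPM.

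**Figure D5:**
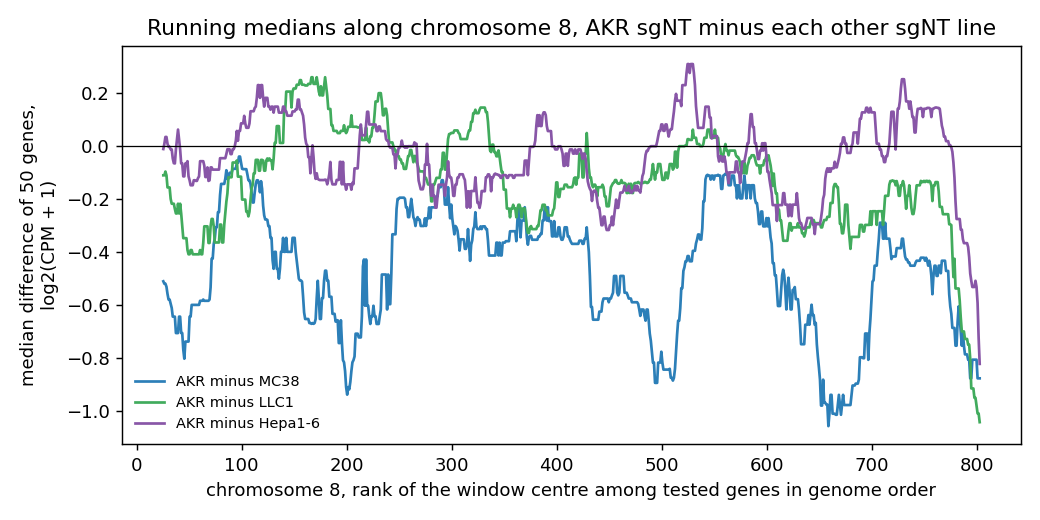
Median log2(CPM + 1) difference of AKR sgNT minus each other sgNT line over running windows of 50 tested genes in order along chromosome 8. The curve against MC38 is lower elsewhere, at -1.06, than at the end of the chromosome, where all 3 curves fall to -0.88 (MC38), -1.04 (LLC1) and -0.82 (Hepa1-6).

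The highest window lay on chromosome 2 from 92452764 to 106974424, with medians of 0.45, 0.55 and 0.64 against MC38, LLC1 and Hepa1-6. Picked for its high median, it held 6 genes called higher than in each line and none lower, beside 3.63% and 1.78% of all genes. Among them was Prrg4, at 104.6 CPM against at most 30 CPM on average elsewhere. Trim44, Rcn1, Pax6 and Chst1 had larger mean differences in this window without a call against all lines. Over whole chromosomes the median difference of AKR from the mean of the others ranged from -0.26 on chromosome 19 to 0.29 on chromosome 11.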

How the data were processed

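RNA of 4 mouse tumour lines was sequenced as strand-specific libraries, labelled paired-end, per the labels. The deposited tables, 1 per line, hold log2 values that the authors normalised within each line, and the tools that the submitters' processing notes list are DESeq2, STAR and FastQC (0.11.5), beside build mm10. Versions of DESeq2 and STAR, the gene counter and its use of strand are not given in the sources used here, so reads of antisense partners may be mixed. Turned back from log2, less the added 1, 100% of values were whole multiples of 1 step per library (within 0.05 reads), which gave back the reads counted. From these, each column was scaled to CPM, reads per 1000000 of its own sum, a gene absent from a table was counted as 0, and genes with at least 1 CPM in at least 3 of the 12 sgNT libraries were tested.

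Differences of log2(CPM + 1) were fitted across all genes with limma 3.58.1 in R 4.3.3, with 1 mean per line, an intensity trend and no covariate, and two-sided p-values were adjusted by Benjamini-Hochberg over all genes tested. The added 1 draws differences of low genes toward 0. Values after ± are SD of 3 libraries for levels and SE for differences. A fold is a ratio of mean CPM, and "at least" marks a fold against 3 reads per library where a group had none. Members and gene lists were chosen with earlier results of these data known, and the lists said to be drawn up after values were seen are descriptions only. The 15 genes named in each direction have the largest smallest difference among called genes with a known symbol and at least 10 CPM, in AKR (higher) or in each other line (lower). Windows of 50 tested genes were ordered by GENCODE M21 positions (GRCm38). Replicate numbers did not pair the libraries: none of 18 pairs of same-numbered libraries of different lines had deviations correlated above 0.1. Alternatives covered the pseudocount, filter, scaling, test, replicate block, call size, each library left out, and the sgB2m libraries. Results for a few genes are not reported here.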

Additional observations from a re-analysis of the deposited data

How the results depend on the processing

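With a pseudocount of 4 CPM, genes called fell to 2585 against MC38 and 2210 against LLC1, those higher than in each line to 345 and those lower to 147. Requiring a log2 difference of 2 left 1352, 1130 and 2142 genes called against MC38, LLC1 and Hepa1-6, and 180 higher and 70 lower than in each. Voom on the recovered reads, which does not add 1 CPM, called 497 lower than in each line. Cxcl16 was called under the other alternatives but not with a pseudocount of 4 CPM (-0.85) or a required difference of 2, where it stays at -1.62. Of the 15 higher genes, the 15 lower genes and B2m, each kept its side of the threshold wherever it could be fitted. Restricting the fit to genes with an entry in all 4 tables, chosen after seeing the data, gave 386 higher and 266 lower genes, and 16 of these genes, Itgb1 among them, then have no value.

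Leaving out each of the 12 libraries gave 3864 to 3905 genes called against MC38, 3466 to 3536 against LLC1 and 4925 to 4967 against Hepa1-6, with 558 to 574 higher and 272 to 282 lower than in each. With the replicate block, which the pairing check gave no ground for, the counts were 3886, 3492 and 4939 against the 3 lines, 563 higher and 276 lower. Upper-quartile scaling moved the median difference from MC38 from -0.04 to 0.10, and the share of higher among the genes called against MC38 from 40.8% to 52.6%. The chromosome 8 window median, -0.91 over the 3 lines, was -0.96 with a pseudocount of 0.25 CPM, -0.74 with 4 CPM, -0.98 with a filter of 5 CPM, -0.86 with upper-quartile scaling, -0.98 with voom and -0.17 with no filter, where genes near 0 in all lines enter. It ranged from -0.96 to -0.88 without each library. Depth limits genes under about 0.1 CPM, where 3 reads per library is the floor.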

Other observations

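Hox genes, which record position along the body axis, differed between clusters in AKR. Of 10 HoxB genes, all but Hoxb9 (0.54 CPM) had 0 reads in AKR, while Hoxb9 stood at 43.5 CPM in MC38. Genes of the other clusters were expressed, with Hoxa9 at 26.9, Hoxa10 at 21.4, Hoxc10 at 35.6 and Hoxd8 at 24 CPM. Hoxa11 was called higher than in each line, at 40.6, 38 and 38.7 CPM against at most 9.49 CPM in MC38 and 0 reads in LLC1 and Hepa1-6. Hepa1-6 had 0 reads for 26 of the 37 Hox genes with an entry, AKR for 12.

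Xist, the RNA of the inactive X, stood at 0.134 CPM in AKR, against 2256 CPM in LLC1 and 1257 CPM in Hepa1-6. MC38 lacked it too, with at most 0.948 CPM summed over the listed sex chromosome markers, and Xist was not called between AKR and MC38. Uty had 0 reads in all 4 lines. Among oncofetal genes, Igf2bp1 stood at 128 CPM in AKR, near the 131 CPM of Hepa1-6, while Lin28b had 0 reads. Cd74, the class II invariant chain, was called higher than in each line at 21.2, 22.5 and 22.4 CPM against at most 3.02 CPM, while its class II partner H2-Ab1 had 0 reads and the regulator Ciita stood at 0.0203 CPM. Neighbours of Hras on chromosome 7 did not share its level, with Lrrc56 at 1.25 CPM and Rnh1 at 232 CPM in AKR and neither called against each line.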
